A study of Mus musculus with 2 samples.

Results

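Il1a, Il1b, Il1rn, Cxcl1, Cxcl2, Cxcl3 and Ptgs2 were followed as a set of inflammatory mediators in tumor mononuclear phagocytes (TMPs). They were chosen by gene symbol from both count matrices and make up 7 of the 27998 genes listed. B16F0 melanoma cells had been transplanted into C57Bl/6 mice that were either Fcmr+/+ or Fcmr-/-, the latter lacking Fcmr in all cells, and MerTk+ CD64+ TMPs were sorted after heated enzymatic digestion of the tumors. The comparison asks how the Fc receptor for IgM, encoded by Fcmr, bears on the makeup of TMPs. The mice were littermates matched for sex, age and cage, but the ages and the number of mice in each library are not given in the sources used here. Each genotype has 1 droplet library of 3′ transcript ends, so mouse-to-mouse spread is unknown, no test between genotypes was possible, and genotype and any other difference between the libraries cannot be told apart.

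Interleukin-1 alpha and interleukin-1 beta are cytokines that act through a shared receptor, which signals through MyD88 to NF-kB. Interleukin-1 beta is made as a precursor and is cut by caspase-1 in inflammasomes, whereas the alpha form is active before it is cut. The receptor antagonist encoded by Il1rn binds the same receptor without starting a signal. Cxcl1, Cxcl2 and Cxcl3 encode chemokines with an ELR motif that attract neutrophils through Cxcr2, and Ptgs2 encodes cyclooxygenase-2, the inducible enzyme at the start of prostaglandin synthesis. In macrophages most of these genes are known as rapidly induced targets of NF-kB, and tumor macrophages are a known source of their products.

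The chemokine genes lie near each other, with Cxcl1 between Cxcl3 and Cxcl2. In GRCm38, the plus strand of chromosome 5 carries Cxcl3 (90786103 to 90789600), Cxcl1 (90891241 to 90893115) and Cxcl2 (90903871 to 90905938) within 119.8 kb. On the minus strand of chromosome 2, Il1a (129299610 to 129309972) and Il1b (129364570 to 129371139) are 54.6 kb apart. Il1rn lies elsewhere on that chromosome, on the plus strand (24336853 to 24351494), and Ptgs2 is on the plus strand of chromosome 1 (150100031 to 150108227). Promoters of the 3 chemokine genes and of Ptgs2 are shown because Cxcl3 and Ptgs2 gave the largest differences of the 7 between the libraries, while Cxcl1 and Cxcl2, on the same stretch as Cxcl3, gave none of that size. The sequences are from RefSeq (GRCm38.p6), run 5′ to 3′ on the plus strand and stop before the first transcribed base, and capitals mark matches to a kappa B site, the C/EBP motif TTGCNNAA or the TATA box TATAAA.
Cxcl3, chr5:90785991-90786100: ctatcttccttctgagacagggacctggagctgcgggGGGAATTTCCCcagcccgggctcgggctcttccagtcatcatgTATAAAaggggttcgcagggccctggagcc
Cxcl1, chr5:90891135-90891240: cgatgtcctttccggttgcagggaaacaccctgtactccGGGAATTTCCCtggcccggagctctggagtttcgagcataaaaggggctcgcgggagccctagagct
Cxcl2, chr5:90903789-90903870: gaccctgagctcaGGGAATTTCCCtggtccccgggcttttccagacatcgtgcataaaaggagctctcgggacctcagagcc
Ptgs2, chr1:150099921-150100030: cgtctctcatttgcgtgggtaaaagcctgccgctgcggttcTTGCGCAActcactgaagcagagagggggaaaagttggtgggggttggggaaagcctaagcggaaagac

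All 3 chemokine promoters carry the same run of letters at the kappa B match, whose first base lies 73 bases before the RefSeq start in Cxcl3, 71 in Cxcl1 and 97 in Cxcl2. Over 250 bases before each of 32851 RefSeq starts, on both strands, a kappa B match was present in 3.90%, and among the 9 starts of the 7 genes it was present in these 3 only. The C/EBP motif, present in 9.56% of starts, was found in Ptgs2 alone, 69 bases before its start. TATAAA, present in 12.4%, was found before Il1a, Il1b and Cxcl3. The AP-1 motif TGANTCA, present in 6.75%, was found before Il1a and Il1rn, and the hypoxia response core ACGTG, present in 16.6%, before Cxcl1 and Cxcl3. These matches are letters in a window and were not tested for function.

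The libraries held 6352 Fcmr+/+ and 7999 Fcmr-/- cells after filtering, with 128408544 and 124630621 counts of unique molecular identifiers (UMIs), and medians of 17973.5 and 12911 UMIs per cell. Only 4 Fcmr+/+ and 6 Fcmr-/- cells had any UMI of Fcmr itself, 7 and 6 UMIs in all, which is too few to check either label. Of the sort markers, at full depth, Fcgr1 (CD64) had a UMI in 90.0% of Fcmr+/+ and 91.8% of Fcmr-/- cells and Mertk in 58.7% and 43.4%. With every cell drawn down to 5000 UMIs, the shares were 63.8% and 76.4% for Fcgr1 and 25.4% and 19.0% for Mertk. At full depth, all but 1 Fcmr+/+ and 15 Fcmr-/- cells had at least 5 UMIs of the macrophage markers. The libraries share 73 cell barcodes. Levels are given as CPM, the UMIs of a gene per 1000000 UMIs of the cells considered, and are not divided by gene length because each UMI marks the 3′ end of a transcript. Intervals are exact 95% intervals (Clopper-Pearson for cell shares, Poisson for CPM and the conditional binomial form for ratios) that reflect counting alone. Since depth differed, shares of cells were read after every cell had been drawn down to 5000 UMIs, which left out no cell.

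Cxcl3 and Ptgs2 were the members that differed most between the genotypes, and both were higher in Fcmr-/- TMPs. Il1rn and Il1b were higher by smaller factors, and Il1a, Cxcl1 and Cxcl2 had ratios between 0.95 and 0.995, which turned to slightly higher in Fcmr-/- cells when every cell counted equally (log2 ratios 0.18, 0.08 and 0.11 from the mean of per-cell CPM). A size rule of 2-fold on log2(CPM + 1) was met by 1 of the 7 members in the direction of Fcmr-/- (Cxcl3) and by 0 in the other direction, where 0.793% and 0.287% of the 8701 genes with at least 5 CPM in either library met it. The median log2 ratio of Fcmr-/- over Fcmr+/+ was 0.25 over the 7 members and 0.00 over all 8701 genes.

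**Figure D1:**
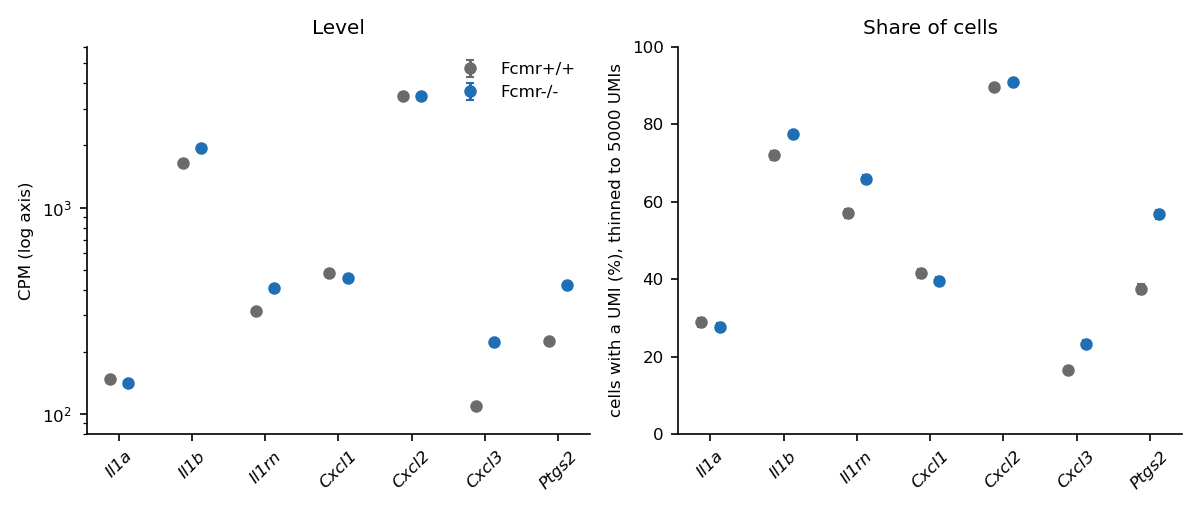
CPM of each gene on a log axis (left) and the percentage of cells with a UMI after thinning to 5000 UMIs (right) in the Fcmr+/+ (gray) and Fcmr-/- (blue) libraries. Bars are exact 95% counting intervals, mostly smaller than the points. Cxcl3 and Ptgs2 stand apart on the log axis, with 110 against 223 CPM and 226 against 423 CPM. In shares of cells Ptgs2 has the widest gap (37.5% against 56.7%), followed by Il1rn (57.0% against 66.0%) and Cxcl3 (16.4% against 23.3%).

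Il1b, the main secreted interleukin-1 of macrophages, was at 1645 CPM (interval 1638 to 1652) in the Fcmr+/+ library and 1953 CPM (1945 to 1961) in the Fcmr-/- library. The ratio was 1.19 (interval 1.18 to 1.19), and Il1b had a UMI in 72.0% and 77.5% of thinned cells. Il1a was at 148 CPM (146 to 150) and 141 CPM (139 to 143), a ratio of 0.95 (0.931 to 0.97), with a UMI in 28.8% and 27.6% of thinned cells. Il1b transcripts outnumbered those of Il1a by 11.1 to 1 in Fcmr+/+ cells and by 13.9 to 1 in Fcmr-/- cells.

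Il1rn, the antagonist, was at 314 CPM (311 to 317) and 409 CPM (406 to 413), a ratio of 1.30 (1.28 to 1.32). Its share of thinned cells was 57.0% in Fcmr+/+ and 66.0% in Fcmr-/-. Il1b and Il1rn thus were both higher in Fcmr-/- cells, whereas Il1a was not, and the ratio of Il1b to Il1rn UMIs was 5.23 in Fcmr+/+ and 4.77 in Fcmr-/- cells.

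Cxcl2 was the most abundant member and ranked 23 by CPM among all genes in both libraries. Its level was 3473 CPM (3463 to 3483) in Fcmr+/+ and 3456 CPM (3445 to 3466) in Fcmr-/- cells, and 89.8% and 91.0% of thinned cells had a UMI. Cxcl1 was at 480 CPM (476 to 484) and 458 CPM (454 to 461), in 41.5% and 39.5% of thinned cells. Cxcl3, the rarest of these chemokines, was at 110 CPM (108 to 112) and 223 CPM (220 to 225), a ratio of 2.03 (1.99 to 2.07). Of the 3 chemokines, Cxcl3 alone met the size rule, and the ratio of Cxcl2 to Cxcl3 UMIs was 31.6 in Fcmr+/+ and 15.5 in Fcmr-/- cells. Cxcl2 and Cxcl3 transcripts share a run of 110 bases, which ends 1687 and 850 bases before their 3′ ends, so that reads from this stretch alone could not be given to either gene.

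Cxcl3 lies just inside the 2-fold limit, with a log2 ratio of 1.01, and Ptgs2 just outside it, with 0.90. They ranked 69 and 86 among 8701 genes by ratio. Ptgs2 was at 226 CPM (224 to 229) in Fcmr+/+ and 423 CPM (420 to 427) in Fcmr-/- cells, a ratio of 1.87 (1.85 to 1.90). For Ptgs2 the difference lay more in how many cells had a UMI, 37.5% against 56.7% of thinned cells, with 3.46 and 4.41 UMIs per positive cell. For Cxcl3, 16.4% and 23.3% of thinned cells had a UMI, with 4.41 and 6.43 UMIs per positive cell. The order of levels differed between the libraries: Ptgs2 lay below Il1rn in Fcmr+/+ and above it in Fcmr-/- cells, and Cxcl3 lay below Il1a in the former and above it in the latter. Neighbors in either order did not overlap in their counting intervals, which treat UMIs as independent. By share of thinned cells the order did not switch. In Fcmr-/- cells Il1rn (66.0%) stayed above Ptgs2 (56.7%) and Il1a (27.6%) above Cxcl3 (23.3%), as in Fcmr+/+ cells.

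The genes were spread over cells to different extents. The 10% of cells with the most Cxcl3 UMIs held 86.6% of them in the Fcmr+/+ library and 83.4% in the Fcmr-/- library, against 36.2% and 35.9% for Cxcl2. For Ptgs2 the top 10% held 56.7% and 43.8%, for Il1a 63.6% and 66.7%, and for Cxcl1 57.5% and 60.3%. Single cells reached 383 and 455 Cxcl3 UMIs, while the median cell of either library had 0. On average, 3.43 of the 7 genes were detected in a thinned Fcmr+/+ cell and 3.82 in a thinned Fcmr-/- cell. All 7 were detected in 2.00% and 3.93% of cells, and none of them in 2.30% and 1.39%. No cell type that lacks these genes was present in number, so the background of free RNA could not be read. The lowest share of thinned cells in any cluster, described next, was 5.79% for Cxcl3 in Fcmr+/+ cells of cluster 5.

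Both libraries were clustered together with the members left out of the genes used, which gave 9 clusters. Cluster 1 (interferon-gamma-high phagocyte-like) held 95 Fcmr+/+ and 2336 Fcmr-/- cells, and cluster 8 (type I interferon-high phagocyte-like) held 223 and 687. Cluster 4 (hypoxic macrophage-like, with 11 of 11 hypoxia markers higher than in other cells) held 717 and 977 cells, cluster 6 (Mrc1-high macrophage-like) 1188 and 345, and cluster 7 (dividing macrophage-like) 720 and 731. All 11 hypoxia markers were also higher in clusters 8 and 9. Their median log2 ratio against other cells was 1.52 in cluster 4, 0.98 in cluster 8 and 0.61 in cluster 9. The others were left unnamed. Cluster 2, led by Ccl17, Ifitm1 and Il1r2, held 1299 and 822 cells, cluster 3, led by Spp1, held 792 and 1268, cluster 5, led by Acp5 and Apoe, held 916 and 655, and cluster 9, led by Adm and Bhlhe41, held 402 and 178. Hemoglobin genes led cluster 4, the melanoma gene Dct was among the 10 leading genes of cluster 9, and S100a8 and S100a9, abundant in neutrophils, were among those of cluster 3. Cluster 4 had a median of 9185 UMIs and cluster 8 one of 8817 UMIs per cell.

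Of the 7 members, 4 were more than 4-fold apart between the highest and the lowest cluster. The share of all genes that far apart was not computed, so the count describes the members only. Cxcl3 varied most, from 24.1 CPM in cluster 5 to 578 CPM in cluster 4, a 23.9-fold span over both libraries. Il1a ran from 45.7 to 349 CPM (7.63-fold) and Ptgs2 from 104 to 717 CPM (6.90-fold) between the same clusters. Il1b was lowest in cluster 9 (469 CPM) and highest in cluster 2 (3163 CPM), with 3126 CPM in cluster 3 and 2829 CPM in cluster 8. Spans were smaller for Cxcl1 (3.89-fold, highest in cluster 3), Il1rn (3.85-fold, highest in cluster 8) and Cxcl2 (3.48-fold, highest in cluster 4). Cxcl2 therefore was broadly present, with at least 76.9% of thinned Fcmr+/+ cells of every cluster carrying a UMI. The highest clusters named here are those of both libraries pooled. In Fcmr+/+ cells alone Il1a and Il1b were highest in cluster 3, and in Fcmr-/- cells alone Cxcl1 was highest in cluster 4. With clusters at a finer resolution of 1.2, or with the members kept among the genes used, all 7 were more than 4-fold apart. At a coarser resolution of 0.4, with 6 clusters, 3 were (Il1b, Cxcl3 and Ptgs2), and the spans of Il1a and Cxcl3 were 3.49-fold and 15.5-fold.

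**Figure D2:**
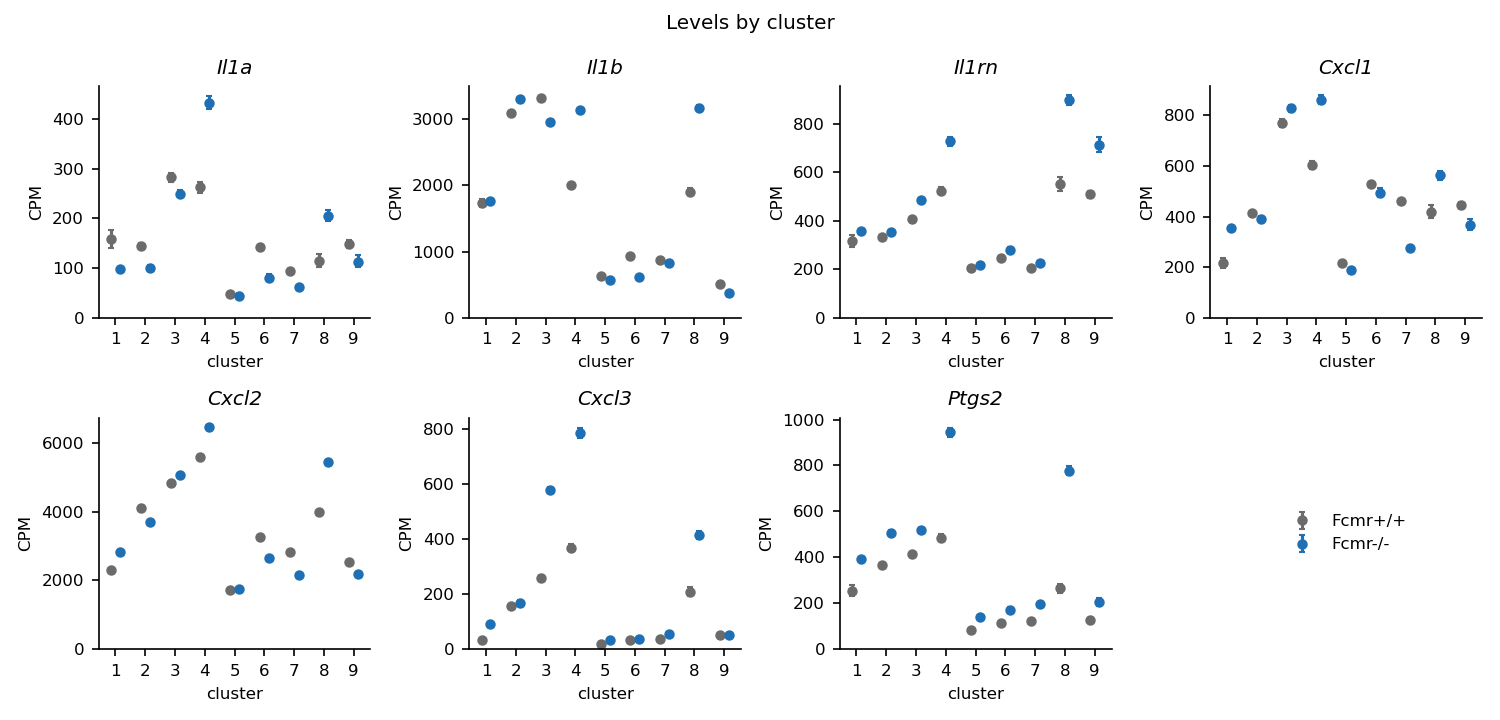
CPM of each gene in the 9 clusters, with Fcmr+/+ cells in gray and Fcmr-/- cells in blue and bars for exact 95% counting intervals. All 7 genes were higher in Fcmr-/- cells in clusters 4 and 8, and Cxcl3 and Ptgs2 peaked in Fcmr-/- cells of cluster 4, at 783 and 945 CPM.

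Cxcl3 transcripts were concentrated in clusters 3 and 4. These clusters held 23.8% of Fcmr+/+ and 28.1% of Fcmr-/- cells but 50.8% and 61.9% of Cxcl3 UMIs. In the Fcmr+/+ library cluster 2, with 20.5% of cells, held the largest single part of Cxcl3 UMIs. That part was 27.0%, against 26.6% in cluster 3 and 24.2% in cluster 4. In the Fcmr-/- library cluster 2 held 7.36% of them. In cluster 3, Cxcl3 was at 259 CPM in Fcmr+/+ and 577 CPM in Fcmr-/- cells, and in cluster 4 at 368 and 783 CPM. Ptgs2 and Il1b were less concentrated, with 36.1% and 33.6% of Ptgs2 UMIs and 31.6% and 32.8% of Il1b UMIs in the same clusters. The balance of Cxcl2 and Cxcl3 also shifted with the cluster, from 15.3 Cxcl2 UMIs per Cxcl3 UMI in cluster 4 to 103 in cluster 6 among Fcmr+/+ cells, and from 8.25 to 68.9 among Fcmr-/- cells. For Il1b against Il1rn the span ran from cluster 9, at 0.987 in Fcmr+/+ and 0.517 in Fcmr-/- cells, to cluster 2, at 9.35 and 9.37. Il1b was highest in cluster 2 over both libraries together, whereas in Fcmr+/+ cells alone cluster 3 was higher, at 3325 against 3094 CPM. Il1r2, one of the genes that lead cluster 2, encodes the decoy receptor for interleukin-1. In cluster 2 Il1r2 was at 48.9 CPM in Fcmr+/+ and 61.1 CPM in Fcmr-/- cells.

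Within clusters, Ptgs2 was higher in Fcmr-/- cells in 9 of 9 clusters, by factors from 1.25 (interval 1.21 to 1.29) in cluster 3 to 2.93 (2.72 to 3.17) in cluster 8. In CPM, Cxcl3 was higher beyond its counting interval in 8 of 9 clusters and level in cluster 9 at 0.985 (0.814 to 1.19). The largest factor was 2.74 (2.14 to 3.56) in cluster 1, where only 95 Fcmr+/+ cells were available. These intervals treat UMIs as independent, although few cells held most Cxcl3 UMIs. In shares of thinned cells, the intervals of Cxcl3 were apart only in clusters 3, 4 and 8. In cluster 6 its share was lower in Fcmr-/- cells, at 7.91% in Fcmr+/+ and 6.96% in Fcmr-/-. Il1rn was higher in 8 of 9 clusters, by up to 1.63 (1.54 to 1.72) in cluster 8, and in cluster 5 its ratio was 1.05 (0.99 to 1.11). The CPM of Cxcl3, Ptgs2 and Il1rn thus was not lower beyond counting error in any cluster.

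The remaining members changed sides between clusters. Il1b was higher in Fcmr-/- cells in 3 clusters, by 1.67 (1.62 to 1.72) in cluster 8 and 1.56 (1.53 to 1.59) in cluster 4, and lower in 5 clusters, down to 0.662 (0.64 to 0.684) in cluster 6. Of these 5, its share of thinned cells was slightly higher in Fcmr-/- cells in clusters 5, 7 and 9. Il1a was higher in clusters 4 and 8 and lower in 6 clusters, again with its lowest ratio in cluster 6 at 0.566 (0.516 to 0.62). Cxcl1 was higher in 4 clusters and lower in 5, the lowest being the dividing cells of cluster 7 at 0.595 (0.575 to 0.615). For Cxcl2 the split was 4 and 4, from 0.761 (0.751 to 0.77) in cluster 7 to 1.37 (1.34 to 1.40) in cluster 8. The near-equal totals of Il1a, Cxcl1 and Cxcl2 thus took in clusters that differed in opposite directions. They also reflect what part of the UMIs of each library a cluster held, as described below. In clusters 4 and 8, all 7 members were higher in Fcmr-/- cells beyond counting error. The share of all genes higher by the same interval in these clusters was not computed.

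**Figure D3:**
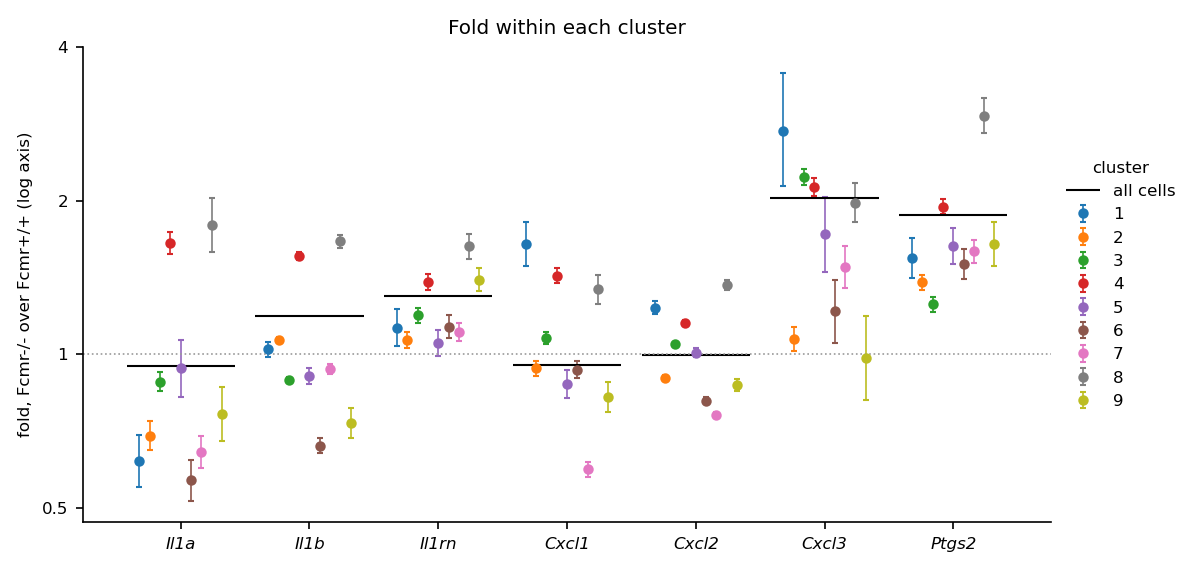
Fold of CPM in Fcmr-/- over Fcmr+/+ cells (log axis) for each gene within each of the 9 clusters, with exact 95% counting intervals, and the fold over all cells as a black line. Points of Ptgs2 all lie above 1, while those of Il1a run from 0.566 in cluster 6 to 1.79 in cluster 8.

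Cluster makeup was read by weighting the Fcmr+/+ levels with the share of UMIs that each cluster held in the Fcmr-/- library. For Cxcl3 this makeup alone gave a log2 ratio of 0.02, whereas Fcmr-/- levels at Fcmr+/+ makeup gave 0.78. For Ptgs2 the values were 0.22 and 0.62, and for Il1rn 0.10 and 0.26. For Il1b they were 0.16 and 0.01, for Il1a 0.12 and -0.23, for Cxcl1 -0.23 and -0.07, and for Cxcl2 -0.09 and -0.10. These values are not shares of a difference, since they depend on which library supplies the levels. The makeup values also lean on Fcmr+/+ levels in cluster 1, which held 29.2% of Fcmr-/- cells. Those levels come from 95 Fcmr+/+ cells, with 64 Cxcl3 UMIs in all. At Fcmr-/- levels, the change from Fcmr+/+ to Fcmr-/- makeup took Cxcl3 from 189 to 223 CPM. It took Cxcl1 from 457 to 458 CPM and Cxcl2 from 3241 to 3456 CPM. With every cluster weighted equally the log2 ratio of Cxcl3 was 0.92 and that of Ptgs2 0.78, and 0 members met the 2-fold rule.

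Among markers of other cell types, those of neutrophils were, like Cxcl3, higher in Fcmr-/- cells and highest in cluster 4. The 10 neutrophil markers summed to 56.1 CPM in Fcmr+/+ and 122 CPM in Fcmr-/- cells, over clusters from 36.5 to 94.9 CPM in the former and from 41.0 to 299 CPM in the latter, with the highest value in cluster 4 in both. Mmp8 was the highest of the 10 in both libraries, at 24.8 and 74.1 CPM, while the defining neutrophil genes Ly6g (0 and 3 UMIs), Camp (0 and 2) and Ngp (0 and 0) were at or near 0. No other list of another cell type was highest in cluster 4 in both libraries, though T and NK cell markers were in Fcmr+/+ cells. The parallel with Cxcl3 is limited to the peak, since in both libraries neutrophil markers were lowest in cluster 6 and Cxcl3 in cluster 5. Melanoma markers summed to 40.6 and 64.1 CPM and were highest in cluster 9 in both libraries. Dendritic cell markers (8.25 and 13.6 CPM) were highest in cluster 2. T and NK cell markers (0.864 and 14.5 CPM) and endothelial markers (6.89 and 12.1 CPM) were higher in Fcmr-/- cells. B cell markers (12.4 and 10.4 CPM) and fibroblast markers (0.872 and 0.786 CPM) were lower. Cells with at least 2 UMIs and 0.5 per mille of markers of neutrophils, dendritic cells, lymphocytes, mast cells, fibroblasts, endothelium or melanoma numbered 223 (3.51%) in Fcmr+/+ and 943 (11.8%) in Fcmr-/-. Mmp8 had a UMI in 59.6% and 77.7% of these cells, S100a8 in 38.6% and 32.2%, Pmel in 36.8% and 32.2% and Cd3d in 1.79% and 3.08%. Whether they belong to other cell types was not tested. They carried 6.40% and 28.2% of Cxcl3 UMIs, at 296 and 737 CPM. They made up 61 of 717 Fcmr+/+ and 258 of 977 Fcmr-/- cells of cluster 4 and 16 of 223 and 153 of 687 cells of cluster 8. Their macrophage markers were at 5885 and 6022 CPM against 8793 and 8752 CPM in the other cells. Over all cells of cluster 4 the same markers were at 5516 and 5102 CPM. The marked cells had medians of 11263 and 9054 UMIs, below those of their libraries. Without the marked cells the log2 ratio of Cxcl3 was 0.73, below the 2-fold limit, and that of Ptgs2 was 0.85.

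Several members also varied with the share of genes induced by tissue dissociation. The 14 dissociation and immediate-early genes summed to 7468 CPM in Fcmr+/+ and 6848 CPM in Fcmr-/- cells, and of these 14 only Egr1 was at least 2-fold lower in Fcmr-/- cells, at 201 and 72.8 CPM. Between the 25% of Fcmr+/+ cells with the lowest and the 25% with the highest share of these genes, Cxcl2 was 2.75-fold, Ptgs2 2.64-fold, Il1b 1.98-fold and Cxcl3 1.87-fold higher. In Fcmr-/- cells the same steps were 1.67, 1.60, 1.49 and 0.761. For Il1a, Il1rn and Cxcl1 they were 1.60, 1.54 and 1.64 in Fcmr+/+ and 1.10, 1.42 and 1.09 in Fcmr-/- cells. Within each of the 4 groups of 25%, the log2 ratio of Fcmr-/- over Fcmr+/+ stayed above 0 for Ptgs2 (0.67 to 1.38), Cxcl3 (0.37 to 1.65), Il1rn (0.28 to 0.43) and Il1b (0.16 to 0.58). It changed sign for Il1a (-0.31 to 0.34), Cxcl1 (-0.28 to 0.31) and Cxcl2 (-0.24 to 0.48). Without the top 25% of each library the log2 ratio was 1.22 for Cxcl3 and 0.99 for Ptgs2. The part of dissociation in the levels themselves was not tested.

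The genes tended to be detected in the same cells. Over the 21 pairs, the odds ratio of co-detection in thinned cells had a median of 2.17 in Fcmr+/+ and 2.23 in Fcmr-/- cells, with ranges from 1.34 to 4.92 and from 1.40 to 4.73. It exceeded 2 in both libraries for 13 of 21 pairs. Pairs of other genes at like levels were not compared, so the count describes the members only. The chemokine pairs Cxcl1 with Cxcl2 (4.92 and 4.24) and Cxcl2 with Cxcl3 (4.91 and 4.73) were highest, whereas Cxcl1 with Cxcl3 was at 1.59 and 1.90. Il1b and Ptgs2 were co-detected with odds ratios of 4.12 and 3.50 and had the highest correlation of log-normalized counts across cells, with Pearson's r of 0.472 over 6352 Fcmr+/+ cells and 0.502 over 7999 Fcmr-/- cells. The 6 pairs of Il1rn had odds ratios from 1.34 to 2.23 over both libraries, and those of Cxcl1 other than with Cxcl2 ran from 1.34 to 1.92. Il1b and Cxcl2 were detected together in 66.9% of thinned Fcmr+/+ and 72.4% of thinned Fcmr-/- cells. Within clusters the medians were 1.94 and 1.89, and 8 pairs exceeded 2 in both libraries. Cells of a library share their mice, depth and handling, and these values describe the libraries.

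**Figure D4:**
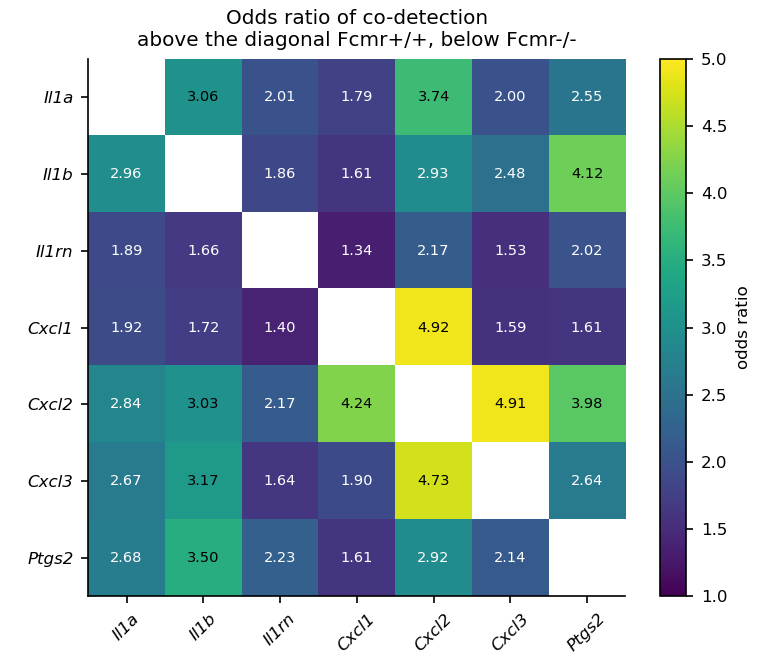
Odds ratio of co-detection for each pair of genes in cells thinned to 5000 UMIs, above the diagonal for Fcmr+/+ and below it for Fcmr-/- cells. The brightest cells are Cxcl1 with Cxcl2 and Cxcl2 with Cxcl3, and the darkest is Il1rn with Cxcl1, at 1.34 in Fcmr+/+ and 1.40 in Fcmr-/- cells.

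Likeness across cells was read among 6698 genes detected in at least 5% of thinned cells, with the members themselves not ranked. The genes most alike the members were the NF-kB inhibitor Nfkbia and the lipopolysaccharide co-receptor Cd14. Some pairs of members had higher values, such as Cxcl1 with Cxcl2 at r of 0.381 in both libraries. Nfkbia was among the 5 most alike of 6 members and Cd14 among those of all 7. Mean r over the libraries was 0.568 for Cxcl2 with Nfkbia, 0.556 for Il1b with Cd14 and 0.420 for Ptgs2 with Cd14. Outside the members, Il1a was most like Nfkbia (0.337), followed by the inflammasome sensor Nlrp3 (0.285). Cxcl1 was most like Nfkbia (0.327) among non-members and had Tnf (0.197) among its 5. Cxcl3 differed in its leading genes, which were Arg1, encoding arginase 1 (0.339), and Thbs1, encoding thrombospondin 1 (0.326). Il1rn was most like Btg1 (0.276) and Hilpda (0.263), the latter a hypoxia-induced lipid droplet gene. The other genes among the 5 most alike were Nfkbiz and Clec4e for Il1a, Thbs1, Srgn and Nlrp3 for Il1b, Il7r and Srgn for Il1rn, Nfkbiz and Tnfaip3 for Cxcl1, Ier3, Nfkbiz and Tnfaip3 for Cxcl2, Btg1 for Cxcl3, and Thbs1, Btg1 and Clec4e for Ptgs2.

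Of 95 other genes in 9 lists on interleukin-1, neutrophil chemokines, prostaglandins, NF-kB and cytokines, 68 had at least 5 CPM in either library, 25 with a higher and 43 with a lower CPM in Fcmr-/- cells. The share of all 8701 genes higher or lower by any amount was not computed. These counts and those by list below therefore describe the listed genes only. None of the 68 met the 2-fold rule, and their log2 ratios ran from -0.94 for Tnf to 0.68 for Casp1 with a median of -0.09. Tnf thus differed by slightly more than Ptgs2 (0.90), in the opposite direction.

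Il18, the other interleukin-1 family ligand at this level, was at 27.4 and 30.8 CPM. The signaling receptor Il1r1 had only 71 and 24 UMIs in all, the accessory chain Il1rap was at 6.67 and 6.59 CPM and the decoy receptor Il1r2 at 12.2 and 8.79 CPM. Among 10 genes of interleukin-1 processing, 4 were higher and 6 lower. Casp1, which cuts the precursor of interleukin-1 beta, was at 43.3 CPM in Fcmr+/+ and 69.7 CPM in Fcmr-/- cells (log2 ratio 0.68), and the sensor Nlrp3 at 202 and 167 CPM (-0.27). In the MyD88 list, 5 genes were higher and 5 lower, with a median log2 ratio of -0.01.

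Of the other neutrophil chemokines, Ppbp was at 53.0 and 33.6 CPM (log2 ratio -0.64), the opposite direction to Cxcl3, and Cxcl5 had 121 and 155 UMIs. The chemokine receptor Cxcr2 had 47 and 29 UMIs. Along the prostaglandin route, the phospholipase Pla2g4a, which releases arachidonic acid, was at 21.7 and 33.5 CPM (0.61) and the prostaglandin E synthase Ptges at 4.15 and 6.64 CPM (0.57). The constitutive cyclooxygenase Ptgs1 was at 5.27 and 4.11 CPM (-0.30), and the receptors Ptger2 and Ptger4 were at 9.28 and 11.1 CPM and at 24.1 and 20.8 CPM. Of 11 genes in the prostaglandin list, 7 were higher and 4 lower.

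Of 14 NF-kB subunits and feedback genes, 12 were lower in Fcmr-/- cells, none of them 2-fold. Their median log2 ratio was -0.19, against 0.00 over all 8701 genes. Nfkbia was at 1658 and 1411 CPM and Tnfaip3, encoding the inhibitor A20, at 314 and 247 CPM. Of the 8 other cytokines at this level, 3 were higher and 5 lower. Tnf, encoding tumor necrosis factor, was at 259 CPM in Fcmr+/+ and 134 CPM in Fcmr-/- cells (log2 ratio -0.94), and was lower in 9 of 9 clusters. Among 11 genes that limit inflammatory transcripts, 3 were higher and 8 lower, with Zfp36, encoding tristetraprolin, at 736 and 770 CPM.

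**Figure D5:**
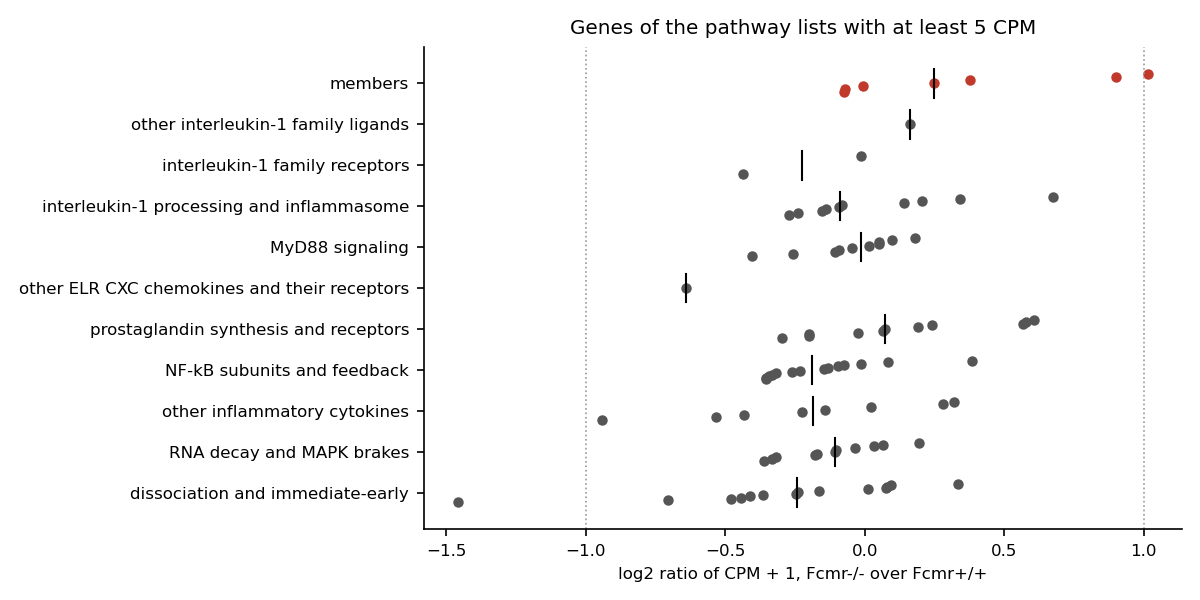
Log2 ratio of CPM + 1, Fcmr-/- over Fcmr+/+, for genes with at least 5 CPM in either library, by list, with the members in red, the median of each list as a black tick and dotted lines at 2-fold. Cxcl3 (1.01) and Ptgs2 (0.90) lie at the right end, Tnf (-0.94) and Egr1 (-1.46) at the left.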

How the data were processed

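For each genotype the authors deposited 1 matrix of raw UMI counts by gene and barcode, for which Cell Ranger had aligned the reads to GRCm38, and no scaling was applied. Their filters were applied: at least 200 and at most 7000 genes per cell and at most 30% mitochondrial UMIs, leaving 6352 of 6392 and 7999 of 8017 cells. Counts were summed over cells to CPM in Python 3.11.15, and 1 CPM was added before log2 ratios. Cells of both libraries were clustered in R 4.3.3 (Seurat 5.3.0) after scaling to 10000 and taking logs, from 1331 variable genes without the members, with 10 principal components and a resolution of 0.8. The authors' own clusters were not used here. Scrublet, in scanpy 1.11.5 at an expected 6% of doublets, called 0 cells in each library, which was taken as a failed call, so doublets were kept and the 5% of cells with the highest scores were left out as an alternative.

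The members, lists and markers were chosen with earlier results of these data known. All 7 members are named, and of the lists those past 2-fold or with a role as ligand, receptor, enzyme or inhibitor. Others stand as examples, chosen after their values were seen. For likeness, the 5 non-member genes with the highest mean Pearson's r over the libraries are named. Gene positions are from GENCODE vM21, and all 7 genes matched RefSeq promoters. The calculations were checked on simulated data.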

Additional observations from a re-analysis of the deposited data

Results flagged for a closer look

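3 members had folds of Fcmr-/- over Fcmr+/+ past 1.5 in opposite directions in different clusters, and none of these differences between clusters was tested. For Il1a the fold was 1.79 (interval 1.59 to 2.03) in cluster 8 and 0.566 (0.516 to 0.62) in cluster 6. For Il1b it was 1.67 (1.62 to 1.72) and 0.662 (0.64 to 0.684) in the same clusters. For Cxcl1 it was 1.64 (1.49 to 1.81) in cluster 1, where the Fcmr+/+ library had 95 cells, and 0.595 (0.575 to 0.615) in cluster 7. The intervals cover counting error only.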

How the results depend on the processing

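No paired analysis was possible because each genotype has 1 library and no result comes from a test. Of the alternatives on scaling, pseudocount, cells and thinning, 0 members were 2-fold lower under any of the 14. Cxcl3 lay between 0.73 and 1.22 on the log2 scale and met the 2-fold rule under 9 of the 14. 0 members met it with a pseudocount of 5 CPM, at most 5000 genes per cell, thinning to 10000 UMIs, without cells with markers of other types, or with equal cluster weights. Ptgs2 lay between 0.78 and 0.99, Il1rn between 0.25 and 0.49 and Il1b between 0.14 and 0.31, all with the same sign throughout, while Il1a (-0.25 to 0.18), Cxcl1 (-0.16 to 0.08) and Cxcl2 (-0.08 to 0.11) changed sign.

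The median over the members, 0.25, was 0.31 with the mean of per-cell CPM, 0.24 with totals without mitochondrial and ribosomal protein genes, 0.24 with at most 5000 genes, 0.31 and 0.14 after thinning to 5000 and 10000 UMIs, 0.20 without cells with other markers, 0.27 without the 25% of cells highest in dissociation genes and 0.16 with equal weights. Leaving out each cluster in turn was added after seeing the data. The median was then 0.32, 0.42, 0.33, 0.20, 0.21, 0.12, 0.26, 0.19 and 0.20 without clusters 1 to 9. Without cluster 2, 2 members met the rule (Cxcl3 and Ptgs2), and 0 did without cluster 4, 5, 6, 8 or 9. Without cluster 3, the 1 member that met it was Ptgs2 (1.01), with Cxcl3 at 0.87. Cxcl3 met it in 3 of these 9 alternatives. Cxcl3 ranged from 0.79 to 1.39 and Ptgs2 from 0.74 to 1.09. The members more than 4-fold apart numbered 3 at resolution 0.4, 7 at resolution 1.2 and 7 with the members kept in clustering, and pairs over an odds ratio of 2 numbered 8 within clusters. The cause of these shifts was not tested.

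With 1 library each, the spread between mice is unknown, which limits every genotype comparison. Some ratios moved with thinning. Drawing down to 10000 UMIs, which left out 1189 Fcmr+/+ and 2661 Fcmr-/- cells, gave 0.14 for Il1b, 0.25 for Il1rn and 0.88 for Cxcl3. At 5000 UMIs, where no cell was left out, the values were 0.31, 0.48 and 1.04. Drawing down leaves the expected CPM of a cell as it is and gives every kept cell equal weight. The mean of per-cell CPM over all cells, with none drawn down, gave 0.31, 0.49 and 1.04. The values at 10000 UMIs describe the deeper cells only, and how these differ from the cells left out was not tested. Shares of cells are detection at 5000 UMIs and miss cells with few transcripts.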
